A study of Homo sapiens with 4 samples.

Results

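The 39 genes described here encode the machinery of autophagy and of mitophagy, its form that removes mitochondria. They were chosen by name, as genes with a known part in these processes, with earlier results of these data known. All 39 were found by symbol among the 61498 genes of the deposited tables, and 37 had enough reads to be tested. The study asked how contacts of the ribosomal DNA clusters with other chromosomes, and gene expression, change in K562 cells when hemin induces erythroid differentiation. Only gene expression is described here. K562 is an established erythroleukemia cell line that keeps some ability to differentiate along the erythroid path. The untreated group held 2 libraries of cells grown without the inducer. The hemin group held 2 libraries of the same cell line kept with 50 µM hemin for 108 h. Poly(A) RNA was sequenced, and the labels give neither group any other treatment or genetic change.

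Macroautophagy begins when the ULK1 kinase complex and a class III phosphatidylinositol 3-kinase mark a site on the endoplasmic reticulum. WIPI proteins bind the lipid made there, ATG9A and ATG2 proteins supply membrane, and ubiquitin-like conjugation enzymes attach ATG8 proteins (the LC3 and GABARAP families) to the growing membrane. Cargo receptors such as p62, the product of SQSTM1, hold ubiquitin-tagged cargo with one end and ATG8 with the other. In maturing red cells mitochondria are cleared by mitophagy, for which BNIP3L (also called NIX) is the best known receptor, and FOXO3 is a transcription factor known to act on autophagy genes in erythroid cells.

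The libraries summed to 7455447 to 8241534 expected counts, the reads that RSEM assigned to genes. The 12 erythroid markers were all detected and summed to 5630 and 5869 TPM (a level scaled by transcript length and depth) in untreated and 7193 and 6732 TPM in hemin libraries. Markers of other cell types were low. The 6 T and B lymphocyte markers summed to 0.60 to 3.04 TPM, with 2 of them at 0 in every library, the 4 monocyte markers to 0.14 to 0.78 TPM, and the 4 fibroblast markers to 6.03 and 7.32 TPM in untreated and 4.70 and 4.51 TPM in hemin libraries, with 1 at 0 in every library. Of the 3 epithelial markers, EPCAM was at 42.35 to 49.22 TPM, whereas CDH1 was at 0 in every library and KRT5 did not exceed 0.38 TPM. The erythroid, fibroblast and lymphocyte sums did not overlap between groups, and their part in the results below was not tested. The lymphocyte sums were 2.94 and 3.04 TPM in untreated and 1.91 and 0.60 TPM in hemin libraries, from only 5 to 19 counts per library. In bulk RNA, fewer cells that express a gene and less of its RNA per cell cannot be told apart. The labels do not say whether the 2 libraries of a group came from separate cultures, so the p-values measure the spread between these libraries, which may be technical.

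After hemin, the transcript of the cargo receptor SQSTM1 rose and the transcripts of 6 other genes fell: the receptor OPTN, the kinase ULK1 and its scaffold RB1CC1, the lipid-binding WIPI1, and the ATG8 proteins GABARAPL1 and MAP1LC3B. The changes were moderate, from 1.115-fold lower for RB1CC1 to 1.79-fold lower for WIPI1 and 1.43-fold higher for SQSTM1. The other 30 tested genes did not pass the threshold, a Benjamini-Hochberg adjusted p of 0.05 over all 14458 genes in the quasi-likelihood test of edgeR. The 1 gene that rose was 2.70% of the 37, beside a background of 7.0% of all tested genes called higher. The 6 genes that fell were 16.2%, beside 7.14% of all tested genes called lower. At an unadjusted p under 0.05, 2 of the 37 genes were higher (5.41%, beside a background of 14.8%) and 13 were lower (35.1%, beside 14.6%). The log2 fold change was below 0 for 26 genes and above 0 for 11, with a median of -0.058 for the 37 genes and -0.0048 for all genes tested. The count of genes that fell was 2 without untreated replicate 2, where lower calls over all genes were 532 of 15216, beside 1033 of 14458 with all libraries. DESeq2 called 3 of the genes lower, on the same 14458 genes with 505 lower calls in all.

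**Figure D1:**
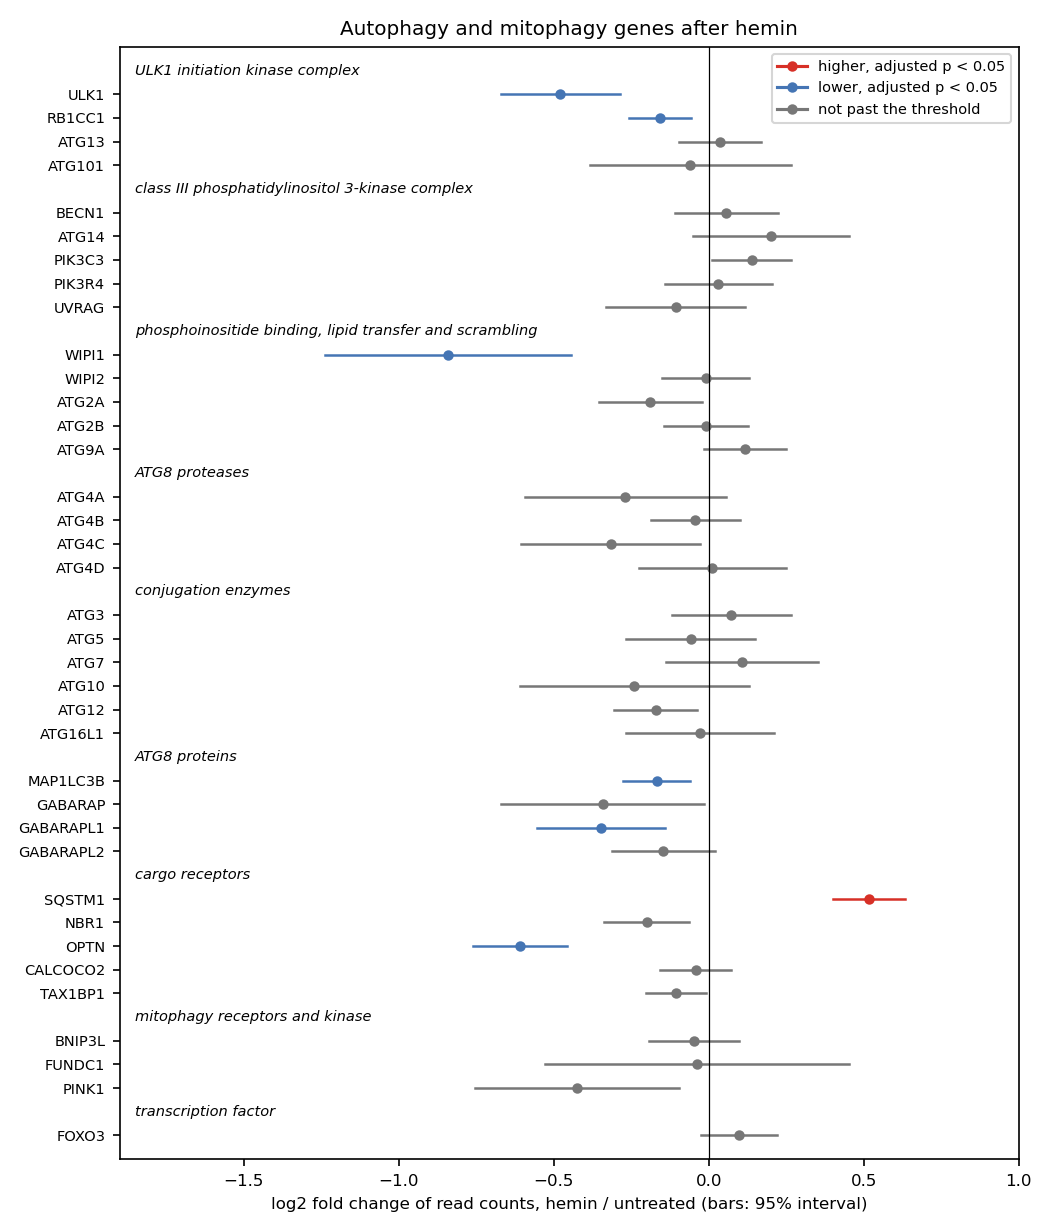
Log2 fold change of read counts, hemin over untreated, for the 37 tested genes in order of role, with points for the estimates, bars for 95% intervals, red for called higher, blue for called lower and grey for genes not past the threshold. SQSTM1 stands alone to the right at 0.52, and WIPI1 lies farthest to the left at -0.84.

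The 4 genes with the largest changes, SQSTM1, OPTN, ULK1 and WIPI1, are shown by the 250 bases before their RefSeq start. The windows of a gene that rose and of 3 that fell can so be set side by side. Gene spans in this text are from GENCODE, whose starts can differ. The OPTN window lies inside the GENCODE span of OPTN, which begins at 13099449. The WIPI1 window reaches into the GENCODE span of WIPI1, whose start on the minus strand is 68457513. The sequences are from RefSeq on GRCh38.p14, read 5′ to 3′ on the strand of the gene, and capitals mark each GC box (GGGCGG on either strand). The SQSTM1 window is chr5:179806143-179806392 on the plus strand, that of OPTN is chr10:13099832-13100081 on the plus strand, that of ULK1 is chr12:131894372-131894621 on the plus strand, and that of WIPI1 is chr17:68457497-68457746 on the minus strand.
SQSTM1: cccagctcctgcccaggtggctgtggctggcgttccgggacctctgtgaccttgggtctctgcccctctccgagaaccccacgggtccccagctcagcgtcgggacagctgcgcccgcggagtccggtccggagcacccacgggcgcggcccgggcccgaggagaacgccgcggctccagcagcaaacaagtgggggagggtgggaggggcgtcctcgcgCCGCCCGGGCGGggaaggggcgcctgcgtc
OPTN: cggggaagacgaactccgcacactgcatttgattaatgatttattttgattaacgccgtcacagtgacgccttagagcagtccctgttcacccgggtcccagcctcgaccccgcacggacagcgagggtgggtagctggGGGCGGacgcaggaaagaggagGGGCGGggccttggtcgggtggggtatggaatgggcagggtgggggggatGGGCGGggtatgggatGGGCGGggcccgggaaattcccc
ULK1: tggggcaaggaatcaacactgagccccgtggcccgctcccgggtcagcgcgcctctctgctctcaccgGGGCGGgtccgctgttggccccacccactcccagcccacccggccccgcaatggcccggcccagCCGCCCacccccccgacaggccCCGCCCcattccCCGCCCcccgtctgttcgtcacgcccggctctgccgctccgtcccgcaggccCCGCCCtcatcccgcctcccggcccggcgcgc
WIPI1: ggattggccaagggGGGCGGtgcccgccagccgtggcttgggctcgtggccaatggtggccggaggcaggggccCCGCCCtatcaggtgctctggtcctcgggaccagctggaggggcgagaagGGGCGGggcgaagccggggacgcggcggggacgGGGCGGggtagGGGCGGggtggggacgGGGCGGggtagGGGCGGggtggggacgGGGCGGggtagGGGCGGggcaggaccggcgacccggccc

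The SQSTM1 window held 2 GC boxes, the OPTN window 4, the ULK1 window 5 and the WIPI1 window 9. The WIPI1 boxes lie mostly in a repeated unit near the start. GC boxes were common in general: 23 of the 33 autophagy gene promoters in the table held at least 1 (69.7%), as did 67.3% of the promoters of tested genes and 42.3% of all 27305 promoters. Motifs of regulators known to act on this pathway were searched on both strands of the same windows. The E-box CACGTG, the core of the site bound by TFEB and its relatives, was in 2 of the 33 (6.06%, beside 9.01% of tested genes' promoters and 6.49% of all promoters), ATG14 and ATG3. The antioxidant response core TGACNNNGC was in 3 (9.09%, beside 12.3% and 11.03%), ATG101, CALCOCO2 and MAP1LC3B. A GATA motif, AGATAA, was in 3 (9.09%, beside 4.67% and 9.37%), ATG13, NBR1 and TAX1BP1. The FOXO motif GTAAACA was in CALCOCO2 (3.03%, beside 1.89% and 2.98%). The cyclic AMP response element TGACGTCA was in GABARAPL1, 30 bases before its RefSeq start (3.03%, beside 3.08% and 1.77%). The GABARAPL1 and MAP1LC3B windows lie inside the GENCODE spans of these genes, which begin at 10212458 and 87383953. The CCAAT box was in 11 (33.3%, beside 35.8% and 33.0%), with 2 copies in the WIPI1 window. A match is a description of these letters only, and a window without one says nothing of the factor.

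Per transcript length, the genes spanned a wide range. The effective lengths behind these TPM were 48.41 to 48.44 bases (medians over genes) below the transcript lengths, less than the mean fragment length set for RSEM, which bears most on short transcripts such as GABARAP, and the effect on the order of levels was not tested. The ATG8 proteins MAP1LC3B and GABARAP, the lipid kinase PIK3C3, and the receptors SQSTM1 and TAX1BP1 were the most abundant, each at 94.19 TPM or more in every library. For PIK3C3 this level rests on a short transcript length, which RSEM averaged over isoforms to 1191 to 1358 bases in the 4 libraries. The merged exons of PIK3C3 span 15154 bases. Its place in the order depends on that estimated length, which was not tested. ATG14, the subunit that directs the lipid kinase to autophagosome sites, was the lowest of the tested genes at 4.96 and 4.95 TPM in untreated and 5.53 and 5.65 TPM in hemin libraries. Several neighbours in that order could not be separated: GABARAP had 127.2 ± 14.0 TPM and PIK3C3 125.5 ± 17.3 TPM in untreated cells (mean ± SD, n = 2). The 39 genes together summed to 1696 and 1760 TPM in untreated and 1629 and 1612 TPM in hemin libraries. ULK2, the relative of ULK1, had 1 count in hemin replicate 1 and none in the other libraries. MAP1LC3A had none in any of the 4, and at 0 reads as many as 3 counts remain possible, which is 0.364 to 0.402 CPM, counts scaled to a common depth, in these libraries (counting error only).

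**Figure D2:**
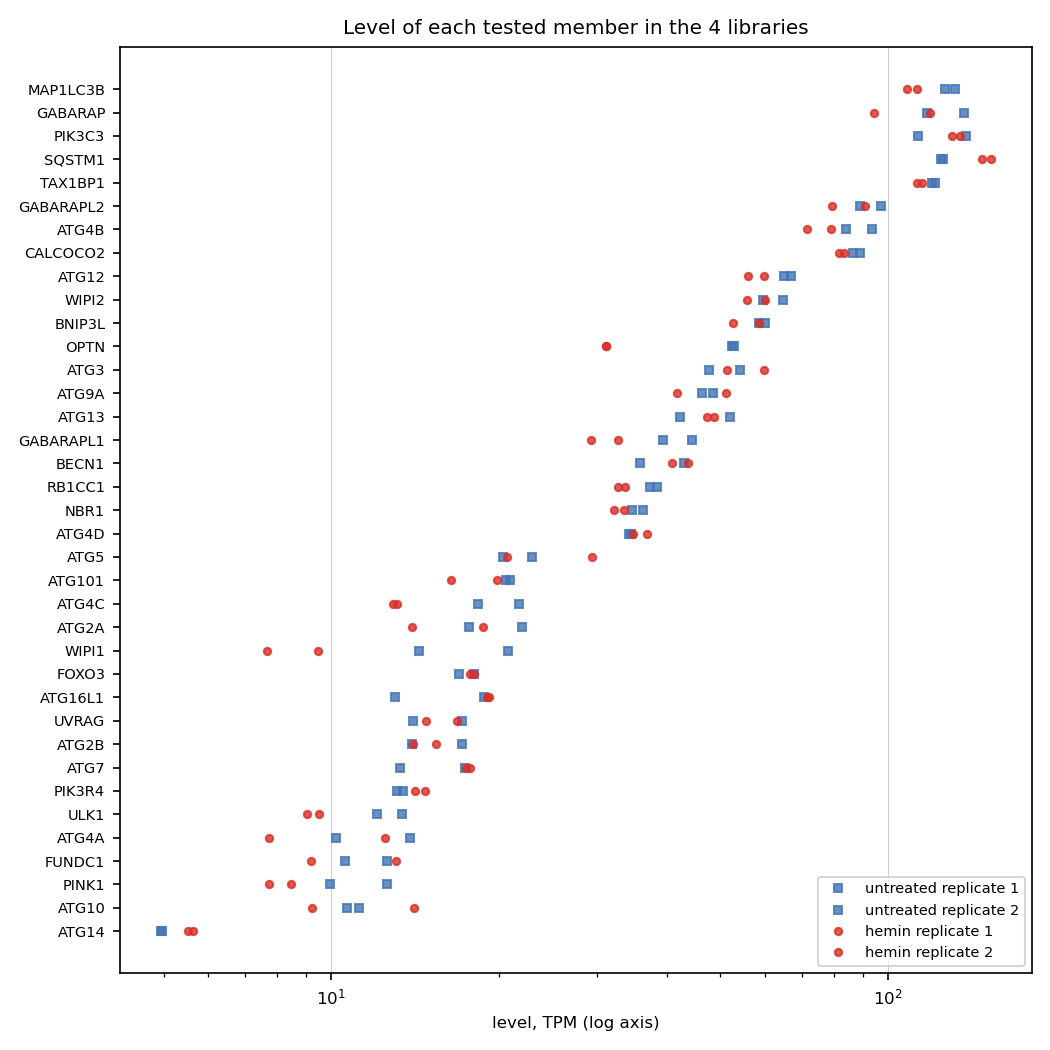
Level of the 37 tested genes in TPM on a log axis, with a blue square for each untreated library and a red circle for each hemin library, ordered by mean untreated level. The hemin circles of SQSTM1 lie to the right of its squares, and those of OPTN and WIPI1 lie clearly to the left.

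Among the cargo receptors, SQSTM1 and OPTN moved in opposite directions. SQSTM1 (chr5:179806398-179838078, plus strand, GRCh38) encodes p62, which gathers ubiquitin-tagged proteins into bodies and is itself degraded with them. Its expected counts were 1035 and 1046 in untreated and 1471 and 1522 in hemin libraries. Both hemin libraries were above both untreated ones, and the gap between groups was many times the gap within them. The log2 fold change was 0.52 ± 0.05 (SE), or 1.43-fold (95% interval 1.32 to 1.55), with an adjusted p of 0.000502 in edgeR. Per transcript length the rise was smaller: the level was 124.2 and 125.5 TPM in untreated and 147.2 and 152.7 TPM in hemin libraries, a ratio of means of 1.201. RSEM's 95% credibility bounds, which cover the division of reads and counting but not the spread between libraries, ran from 100.6 to 133.1 TPM over the untreated and from 127.8 to 160.8 TPM over the hemin libraries, and so overlapped. The test with limma on log2 TPM did not call it, with an adjusted p of 0.121 at a pseudocount of 1 and 0.132 at 0.1.

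The gap between counts and TPM of SQSTM1 came with a longer mean transcript. RSEM gives each gene a length averaged over its isoforms by their estimated shares, and for SQSTM1 it was 1533 and 1588 bases in untreated and 1899 and 1728 bases in hemin libraries. The groups did not overlap, and the hemin mean was 16.2% above the untreated mean. Among all tested genes the median difference in either direction was 3.65%, the groups did not overlap in 29.5%, and 11.9% had a larger difference than SQSTM1. For the 39 genes the median was 4.24%. On the opposite strand, MRNIP covers 21.0% of the exon bases of SQSTM1. The strand setting of the counting was not given, so reads of the 2 genes in that stretch may not be separable. MRNIP had 370 and 336 expected counts in untreated and 290 and 366 in hemin libraries, which overlap between groups.

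OPTN (chr10:13099449-13138308, plus strand) encodes optineurin, a receptor for damaged mitochondria and bacteria that TBK1 phosphorylates. Its counts were 554 and 510 in untreated and 344 and 357 in hemin libraries. The libraries of each group lay close together and the groups were well apart. OPTN fell by 0.61 ± 0.07 (SE) on the log2 scale, 1.53-fold lower (95% interval 1.37 to 1.695), with an adjusted p of 0.00076 in edgeR. The same fall stood in TPM, at 52.45 and 52.82 in untreated and 31.10 and 31.08 in hemin libraries, and the credibility bounds, 43.01 to 58.14 TPM over untreated and 25.32 to 37.98 TPM over hemin libraries, did not overlap. Of the 7 called genes, OPTN alone was called under every one of the 15 alternatives run, with log2 fold changes from -0.76 to -0.57.

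The other 3 receptors did not pass the threshold. NBR1, a relative of p62 that acts with it, was just outside: its counts were 760 and 741 in untreated and 659 and 654 in hemin libraries, which did not overlap, with a log2 fold change of -0.20 and an adjusted p of 0.0591 in edgeR. Without hemin replicate 1 its adjusted p was 0.0336. CALCOCO2, the receptor NDP52 for bacteria and mitochondria, had a log2 fold change of -0.04 (95% interval -0.16 to 0.07), and TAX1BP1, which brings the initiation complex to p62 bodies, had -0.11 (-0.20 to -0.01, adjusted p = 0.131 in edgeR). Together the 5 receptors summed to 421.5 and 421.1 TPM in untreated and 408.4 and 412.1 TPM in hemin libraries. Within this sum the share of SQSTM1 was 29.6% ± 0.247 in untreated and 36.6% ± 0.725 in hemin cells (SD, n = 2). The share of OPTN was 12.5% ± 0.07 and 7.58% ± 0.051. NBR1, CALCOCO2 and TAX1BP1 each held a share within 1 percentage point of its untreated one, at 8.01%, 20.1% and 27.8% after hemin beside 8.42%, 20.8% and 28.6% before.

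**Figure D3:**
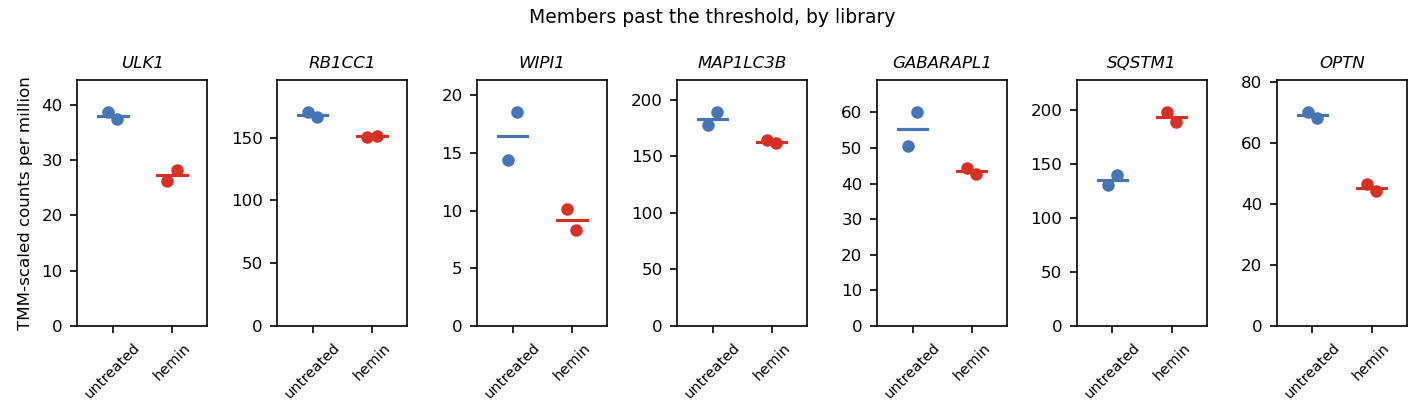
TMM-scaled CPM (counts at a common depth), from 0, of the 7 called genes in each library, with a dot for each library (blue untreated, red hemin) and a line for the group mean. In each panel the groups do not overlap; SQSTM1 is the panel in which hemin lies above untreated.

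Of the initiation kinase complex, 2 of the 4 tested genes fell and none rose, beside the background of 7.14% lower and 7.0% higher, and the fall of RB1CC1 was lost in 11 of the 15 alternatives. ULK1 (chr12:131894622-131923150, plus strand) encodes the kinase that starts autophagy on signals from mTORC1 and AMPK. It had 306 and 280 counts in untreated and 195 and 228 in hemin libraries. Both hemin values lay below both untreated values. ULK1 fell by 0.48 ± 0.09 (SE) on the log2 scale, 1.39-fold lower (95% interval 1.22 to 1.59), with an adjusted p of 0.00732 in edgeR. Only the limma fits on TPM missed the threshold among the alternatives for ULK1, with adjusted p of 0.241 and 0.236. RB1CC1 (chr8:52622458-52745843, minus strand), or FIP200, is the scaffold on which the complex assembles. Its counts were 1349 and 1246 in untreated and 1120 and 1221 in hemin libraries. That fall was small, 0.16 ± 0.04 (SE) on the log2 scale, and stood at the threshold with an adjusted p of 0.0471 in edgeR. It was not called without any one of the 4 libraries, where the adjusted p ranged from 0.101 to 0.174, nor by DESeq2 (0.24), nor with the replicate block (0.0741). ATG13, the adaptor between ULK1 and RB1CC1, had a log2 fold change of 0.04 (95% interval -0.10 to 0.17), and ATG101, which stabilises ATG13, had -0.06 (-0.38 to 0.26).

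None of the 5 genes of the class III phosphatidylinositol 3-kinase complex passed the threshold, and their median log2 fold change was 0.06. The catalytic subunit PIK3C3 had counts of 832 and 852 in untreated and 877 and 989 in hemin libraries, with a log2 fold change of 0.14 (95% interval 0.01 to 0.27) and an adjusted p of 0.135 in edgeR. ATG14 was at 0.20 (-0.05 to 0.45), BECN1, the regulatory core, at 0.06 (-0.11 to 0.22), PIK3R4, the membrane-anchoring subunit, at 0.03 (-0.14 to 0.20), and UVRAG, the subunit of the endosomal form, at -0.11 (-0.33 to 0.12). Each of these intervals lay inside 1.5-fold in either direction. FBXO34, on the opposite strand, covers 20.84% of the exon bases of ATG14.

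WIPI1 stood apart from the other genes that bind the lipid or move membrane. WIPI1 (chr17:68420948-68457513, minus strand) encodes a protein that binds phosphatidylinositol 3-phosphate on the forming membrane. Its counts were 114 and 139 in untreated and 75 and 67 in hemin libraries. The groups did not overlap, although the untreated libraries differed from each other by more than the hemin libraries did. WIPI1 fell by 0.84 ± 0.18 (SE) on the log2 scale, 1.79-fold lower (95% interval 1.36 to 2.36), with an adjusted p of 0.0144 in edgeR. Without untreated replicate 2 the fall was 0.65 on the log2 scale and not called (adjusted p = 0.0904), and the limma fits on TPM gave 0.125 and 0.132. ARSG, on the opposite strand, covers 24.36% of its exon bases and had 22.1 and 24.5 counts in untreated and 17.5 and 17.4 in hemin libraries. Its paralog WIPI2, which recruits ATG16L1, had a level of 62.1 ± 3.63 TPM in untreated and 57.9 ± 3.04 TPM in hemin cells (SD, n = 2). The log2 fold change of WIPI2 was -0.0091 (95% interval -0.15 to 0.13). The lipid transfer proteins had log2 fold changes of -0.19 for ATG2A (-0.35 to -0.02, adjusted p = 0.124 in edgeR) and -0.0083 for ATG2B (-0.14 to 0.13), and the lipid scramblase ATG9A had 0.12 (-0.02 to 0.25).

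Of the 4 tested ATG8 proteins, 2 fell, beside the background of 7.14%. The fold changes of all 4 were below 0, as were those of 7357 of the 14458 genes tested, but that of GABARAP depended on how reads were divided. ATG8 proteins carry the lipid tag of the autophagosome and bind cargo receptors. GABARAPL1 (chr12:10212458-10223128, plus strand) had counts of 400 and 450 in untreated and 328 and 344 in hemin libraries. The groups did not overlap. GABARAPL1 fell by 0.35 ± 0.09 (SE) on the log2 scale, 1.27-fold lower (95% interval 1.10 to 1.47), with an adjusted p of 0.0355 in edgeR. It was not called in 6 of the 15 alternatives. These were both limma fits on TPM, DESeq2 (adjusted p = 0.0859), DESeq2 on the genes kept by filterByExpr, and the fits without untreated replicate 2 or hemin replicate 2. Without untreated replicate 2 the log2 fold change was -0.22. MAP1LC3B (chr16:87383953-87404779, plus strand), the LC3 protein most used as an autophagosome marker, had 1404 and 1418 counts in untreated and 1220 and 1306 in hemin libraries. The hemin values were lower, but by little. MAP1LC3B fell by 0.17 ± 0.05 (SE) on the log2 scale, 1.12-fold lower, with an adjusted p of 0.0482 in edgeR. Leaving out any one library gave 0.0515 to 0.221, the replicate block 0.0696 and DESeq2 0.179, so the call did not hold in any of these fits. GABARAPL2, also known as GATE-16, had a log2 fold change of -0.15 (95% interval -0.31 to 0.02).

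GABARAP (chr17:7240008-7242449, minus strand) shares its reads with a second gene model. Its counts were 331 and 401 in untreated and 237 and 345 in hemin libraries, which overlap between groups, with a log2 fold change of -0.34 ± 0.15 (SE) and an adjusted p of 0.153 in edgeR. On the same strand, the protein-coding model ENSG00000262526 covers 35.42% of the exon bases of GABARAP. This model received 214 and 91 counts in untreated and 239 and 215 in hemin libraries, and RSEM's posterior SD of the GABARAP count was 11.1% of it. Summed over both models the counts were 545 and 492 in untreated and 476 and 560 in hemin libraries. The groups then overlapped with little order, and the log2 fold change of the sum was -0.0098 ± 0.07 (SE, adjusted p = 0.945 in edgeR), a fit chosen after seeing the data. Without hemin replicate 2, GABARAP alone was called, with a log2 fold change of -0.57 and an adjusted p of 0.00825, and with the replicate block it had an adjusted p of 0.0254. The value of GABARAP is therefore uncertain. For ATG9A, which shares 38.8% of its exon bases with the model ENSG00000284820, the sum gave a log2 fold change of 0.15 (adjusted p = 0.119 in edgeR) beside 0.12 alone.

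**Figure D4:**
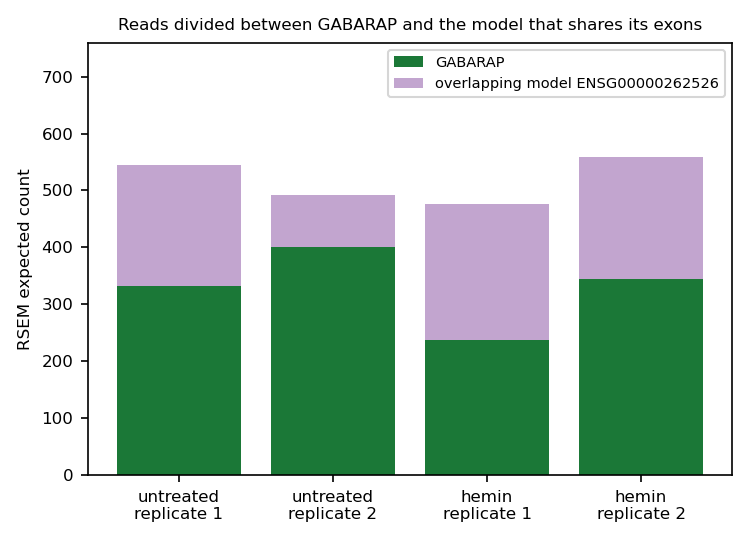
Expected counts, from 0, of GABARAP (green) and of the gene model that shares its exons on the same strand (purple), stacked for each of the 4 libraries. The green part is highest in untreated replicate 2 and lowest in hemin replicate 1, whereas the height of the stack runs from 476 to 560 with both conditions mixed.

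In TPM the 5 ATG8 proteins summed to 372.0 and 410.3 in untreated and 330.5 and 335.8 in hemin libraries. The sum did not overlap between groups, and it includes GABARAP. MAP1LC3B made up 33.0% ± 1.34 of it in untreated and 33.2% ± 1.36 in hemin cells (SD, n = 2), GABARAPL2 23.8% ± 0.163 and 25.5% ± 2.74, and GABARAPL1 10.7% ± 0.18 and 9.30% ± 0.84. The share of GABARAP was 32.5% ± 1.33 and 32.0% ± 4.93, with the uncertainty given above.

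None of the 4 ATG8 proteases and none of the 6 conjugation enzymes passed the threshold. The proteases trim ATG8 proteins before conjugation and release them afterwards. Their log2 fold changes were -0.27 for ATG4A (95% interval -0.59 to 0.05), -0.04 for ATG4B (-0.19 to 0.10), -0.32 for ATG4C (-0.60 to -0.03, adjusted p = 0.134 in edgeR) and 0.01 for ATG4D (-0.22 to 0.25). ATG4B was the most abundant, at 88.9 ± 6.80 TPM in untreated and 75.3 ± 5.36 TPM in hemin cells (SD, n = 2). Among the conjugation enzymes, the ubiquitin-like ATG12 was just outside the threshold, with counts of 615 and 587 in untreated and 503 and 571 in hemin libraries, a log2 fold change of -0.17 (-0.30 to -0.04) and an adjusted p of 0.0866 in edgeR. The groups of ATG12 did not overlap. Its partner ATG5 had -0.06 (-0.27 to 0.15), and ATG16L1, which places the ATG12-ATG5 conjugate on membrane, had -0.03 (-0.27 to 0.21). The activating enzyme ATG7 was at 0.11 (-0.14 to 0.35). The transfer enzymes ATG3 and ATG10 were at 0.07 (-0.12 to 0.26) and -0.24 (-0.61 to 0.13). RSEM's mean transcript length differed by -21.3% for ATG16L1, 19.2% for ATG4C, 11.4% for ATG4B and -5.78% for ATG3. In each of these genes the groups did not overlap in length, as in 29.5% of all tested genes. The TPM ratio, hemin over untreated, was 0.651 for ATG4C and 0.847 for ATG4B, beside count ratios of 0.803 and 0.971. The counts and TPM of ATG16L1 gave different signs, as did those of ATG5 and ATG10, and none of these 3 was called on either scale.

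**Figure D5:**
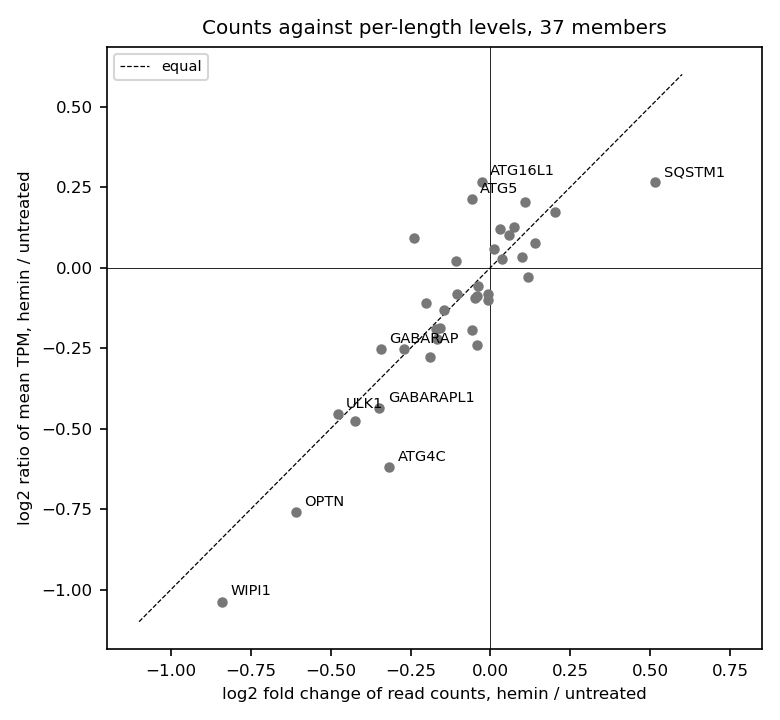
Log2 fold change of read counts (horizontal) against the log2 ratio of mean TPM (vertical), hemin over untreated, with a point for each of the 37 tested genes and a dashed line where both are equal. SQSTM1 lies at 0.52 on the count axis and 0.26 on the TPM axis, whereas ULK1 lies near the line.

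The mitophagy receptors and the kinase PINK1 did not pass the threshold. BNIP3L (chr8:26383054-26505636, plus strand), the receptor by which maturing red cells shed mitochondria, had counts of 573 and 593 in untreated and 547 and 587 in hemin libraries. The groups overlapped once scaled for depth, and the log2 fold change was -0.05 (95% interval -0.19 to 0.10), so a change of 1.5-fold in either direction lay outside the interval. FUNDC1, a receptor in the outer mitochondrial membrane known for hypoxia, was low, with 60 and 69 counts in untreated and 71 and 55 in hemin libraries. At this depth the interval of FUNDC1 was wide, from -0.53 to 0.45 on the log2 scale around -0.04. PINK1 (chr1:20633458-20651511, plus strand), the kinase that accumulates on damaged mitochondria, had 145 and 179 counts in untreated and 122 and 121 in hemin libraries. Both hemin values were below the untreated ones, with a log2 fold change of -0.42 (-0.75 to -0.09) and an adjusted p of 0.0852 in edgeR. It was called without untreated replicate 1 (adjusted p = 0.0363) and had an adjusted p of 0.41 without untreated replicate 2. PINK1-AS, on the opposite strand, covers 39.46% of the exon bases of PINK1 and had 25.5 and 18.1 counts in untreated and 33.8 and 34.6 in hemin libraries. FOXO3 had 676 and 663 counts in untreated and 696 and 746 in hemin libraries, with a log2 fold change of 0.10 (-0.02 to 0.22, adjusted p = 0.269 in edgeR).

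The 95% interval of the fold change lay inside 1.5-fold in either direction for 28 of the 37 genes (75.7%), beside 61.4% of all genes tested. Among the genes not called, the intervals of ATG4A, ATG4C, ATG10, GABARAP and PINK1 reached beyond 1.5-fold, all on the side of a fall.

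A list of 103 further genes of the pathway, written by role with earlier results of these data known, was counted for comparison. Of these, 97 were tested, 6 were called higher (6.19%, beside a background of 7.0%) and 11 lower (11.3%, beside 7.14%), with a median log2 fold change of 0.0032. The numbers varied with the fit, from 0 to 10 higher and 1 to 16 lower. Of the 32 tested genes of nutrient and energy sensing, 1 rose (3.12%) and 3 fell (9.38%), near the background of 7.0% and 7.14%. RPTOR, the scaffold of mTORC1, rose by 0.22 on the log2 scale (adjusted p = 0.0355 in edgeR). SESN3, a sestrin that restrains mTORC1, had 264 and 210 counts in untreated and 140 and 160 in hemin libraries. SESN3 fell by 0.67 (adjusted p = 0.00572). DDIT4, another inhibitor of mTORC1, fell by 0.61 (adjusted p = 0.000142), and PRKAB2, a beta subunit of AMPK, fell by 0.42 (adjusted p = 0.00669). None of the 6 transcription factors of autophagy genes was called. TFEB, the factor best known for this role, had 46 and 26 counts in untreated and 25 and 36 in hemin libraries, with a 95% interval from -0.96 to 0.47 on the log2 scale.

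The class of further selective receptors also held KEAP1 and the kinase TBK1, which are not receptors. Of its 12 tested genes, 2 rose (16.7%) and 4 fell (33.3%), beside the same background of 7.0% and 7.14%. NCOA4, which delivers the iron store ferritin to autophagosomes, was abundant, with 2580 and 2587 counts in untreated and 2202 and 2432 in hemin libraries. The hemin libraries were lower, and NCOA4 fell by 0.17 ± 0.04 (SE) on the log2 scale (adjusted p = 0.0354 in edgeR). The receptors of the endoplasmic reticulum did not move one way. RETREG2 rose by 0.38 (adjusted p = 0.00708 in edgeR). CALCOCO1 fell by 0.31 (adjusted p = 0.017), CCPG1 by 0.25 (adjusted p = 0.012) and RTN3 by 0.22 (adjusted p = 0.0141). RETREG3 at -0.12, SEC62 at 0.0077 and TEX264 at 0.06 were not called (adjusted p = 0.402, 0.953 and 0.818 in edgeR). KEAP1, which binds p62 and marks NRF2 for destruction, rose by 0.34 (adjusted p = 0.0121). Of the 19 further mitophagy genes, 3 rose (15.8%) and 2 fell (10.5%), again beside 7.0% and 7.14%. NIPSNAP1, a matrix protein that recruits receptors to damaged mitochondria, fell by 0.42 (adjusted p = 0.00145), and its paralog NIPSNAP2 fell by 0.29 (adjusted p = 0.0228). The prohibitins of the inner membrane rose, PHB1 by 0.28 (adjusted p = 0.0141) and PHB2 by 0.16 (adjusted p = 0.0473), as did the fission enzyme DNM1L, by 0.16 (adjusted p = 0.045). BNIP3, the paralog of BNIP3L, was at -0.21 (95% interval -0.39 to -0.03, adjusted p = 0.114 in edgeR).

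Of the 12 further core genes tested, 1 fell (8.33%) and none rose, beside the background of 7.14% lower and 7.0% higher. It was TMEM41B, a scramblase of the endoplasmic reticulum, which fell by 0.26 (adjusted p = 0.0425 in edgeR). Of the 16 tested genes of fusion with the lysosome, 1 fell (6.25%) and none rose, beside the same background. It was VPS16, a subunit of the tethering complexes, which fell by 0.24 (adjusted p = 0.0268 in edgeR). DDIT4, PRKAB2, CCPG1, RTN3, RETREG3, SEC62, TEX264, KEAP1, NIPSNAP2, PHB2 and DNM1L were named after their values were seen.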

How the data were processed

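Reads of 50 bases were taken from poly(A) RNA of K562 cells in 4 libraries, 2 per condition. The authors trimmed the reads (Trimmomatic 0.39), aligned them with STAR 2.7.5c to GRCh38 and assigned them to Ensembl 106 genes with RSEM 1.3.1. The deposited expected counts are not normalized, and a read that maps to several genes is split among them by likelihood. Posterior mean counts and their SD, also as deposited, describe that split, and the transcript lengths are in bases. The authors' TPM are scaled by effective length and by library. The deposited effective lengths are shorter than the lengths by about a read, although the methods state a mean fragment several times longer, and the reason was not tested. Their credibility bounds, deposited as a signal that is never negative, come from RSEM's sampling at 95%. The bounds can exclude the TPM itself: MAP1LC3B had 126.45 TPM in untreated replicate 1, with bounds of 107.7 to 121.6. For SQSTM1 and OPTN the TPM lay inside the bounds in each library. A strand setting is not given in the sources used here. The deposited FPKM were not used.

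Tables were joined by gene ID. Rounded expected counts were filtered with filterByExpr, which kept 14458 genes, and scaled by TMM (factors 0.9827 to 1.0182). The quasi-likelihood test of edgeR 4.0.16 in R 4.3.3 had condition as its only term, and p-values were adjusted by Benjamini and Hochberg's method with calls under 0.05. The estimated common dispersion was 0.001179. SE is the log2 fold change over the square root of F. Other fits used RLE scaling, plain library size, DESeq2 1.42.0, all genes unfiltered, a minimum of 20 counts throughout either group, the replicate number as a block, 3 of the 4 libraries in turn, posterior mean counts, or limma 3.58.1 on log2 TPM with pseudocounts of 1 and 0.1. DESeq2 ran on all genes with a count, under its own filtering. Fits added after seeing the data were DESeq2 on the genes kept by filterByExpr, and sums over gene models that share exons on one strand. The script was tested on simulated counts.

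Named were the 39 genes, those with an adjusted p from 0.05 to 0.10 as just outside the threshold, and, of the 103 further genes, the called gene with the largest rise and fall per class plus NCOA4, BNIP3 and TFEB. The genes and lists were chosen with earlier results of these data known. Coordinates are from GENCODE 44 on GRCh38, which held all 39 genes, and overlaps were counted over merged exons. Promoters are from RefSeq on GRCh38.p14, which matched 33 of the 39 by symbol.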

Additional observations from a re-analysis of the deposited data

How the results depend on the processing

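The number of autophagy and mitophagy genes called higher was 1 in all fits except the limma fits on TPM, where it was 0. The number called lower, 6, became 3 with DESeq2 (also on the genes kept by filterByExpr, a fit added after seeing the data), 1 with either limma fit and 2 to 5 without one library, and lay between 4 and 9 in the other fits. For the further pathway genes, the 6 called higher became 3 by library size only, 10 without a filter, 10 at 20 counts or more, 10 on posterior mean counts, 3 with the replicate block, 0 with limma and 2 to 5 without one library. The 11 called lower became 6 with DESeq2, 7 with DESeq2 on the genes kept by filterByExpr, 1 with limma and 5 to 7 without one library. The limma fits called 14 and 15 genes higher and 33 and 34 lower of 14458, beside 1012 and 1033 in edgeR. DESeq2 called 589 higher and 479 lower of 32438 genes before its own filtering, and 589 and 505 of the 14458. By library size only the split was 729 higher and 1358 lower, and the median log2 fold change of all genes was -0.043. RLE scaling called 1073 higher and 1024 lower over all genes. Without a filter these were 1464 and 1321 of 32438, and at 20 counts or more 1232 and 1265 of 12588. On posterior mean counts they were 1347 and 1357 of 14608. Leaving out any one library also gave fewer calls over all genes, in both directions. The counts of the listed genes are to be read beside these totals. Causes were not tested.

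Deviations from the group means in same-numbered libraries had a correlation of -0.029 over 8993 genes with a mean of at least 100 counts. This value cannot show whether same-numbered libraries shared a culture or preparation, and the labels give them only a number. The replicate block gave 5 genes lower and 1 higher, and 855 higher and 886 lower over all genes.

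No called gene changed sign. Signs turned for genes that were not called. By library size only, ATG13 had -0.0029, PIK3R4 -0.0079 and ATG4D -0.027. With DESeq2 and without a filter, WIPI2 had 0.0015 and 0.0031 and ATG2B 0.0013 and 0.0040. On log2(TPM + 1) and log2(TPM + 0.1), UVRAG had 0.023 and 0.024, ATG9A -0.036 and -0.037, ATG5 0.19 and 0.19, ATG10 0.057 and 0.059, and ATG16L1 0.27 and 0.29. Without one library each in turn, log2 values spanned -0.015 to 0.089 for ATG13, -0.23 to 0.091 for ATG101, -0.010 to 0.078 for PIK3R4, -0.075 to 0.064 for WIPI2, -0.036 to 0.024 for ATG2B, -0.0995 to 0.016 for ATG4B, -0.11 to 0.12 for ATG4D, -0.019 to 0.16 for ATG3, -0.16 to 0.12 for ATG16L1, -0.11 to 0.019 for BNIP3L, -0.29 to 0.19 for FUNDC1 and -0.56 to 0.18 for TFEB. Genes with under 200 counts, such as FUNDC1, TFEB and WIPI1, have the widest intervals at this depth.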
